A study of Homo sapiens with 16 samples.

Results

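The anaphase-promoting complex (APC/C) was described here through 10 genes, which were found by symbol in all 6 deposited tables. They are its activators CDC20 and FZR1, its ubiquitin-conjugating enzymes UBE2C and UBE2S, its inhibitor FBXO5, its substrate PTTG1, the protease ESPL1 that PTTG1 holds in check, and the subunits ANAPC1, CDC27 and ANAPC11. These 10 were among 12069 genes listed in every table and 19315 listed in at least 1. The study used small interfering RNAs (siRNAs) in U2OS, a human osteosarcoma line, and HCT116, a human colorectal carcinoma line. In each line the groups were siMYBL1-siMYBL2 (called the double knockdown), siMYBL1 (A-MYB), siMYBL2 (B-MYB) and siCtrl, a siRNA with no target, all harvested at 48 hours. Each of the 8 groups had 2 libraries, 16 in all, of total RNA sequenced in read pairs, and the series' design text calls the 2 libraries biological replicates. Not given in the sources used here are the number of siRNAs per target and the siRNA sequences, and no label mentions synchronization of the cells.

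The APC/C is the ubiquitin ligase that ends mitosis. With CDC20 it marks securin (PTTG1) and cyclin B for destruction at the metaphase-anaphase transition, which frees separase (ESPL1) to cut cohesin, and with FZR1 (also called CDH1) it clears further mitotic proteins on leaving mitosis and through the following gap phase. UBE2C starts the ubiquitin chains, UBE2S lengthens them, and FBXO5 (also called EMI1) blocks the ligase before mitosis. B-MYB is a transcription factor that joins the MuvB complex at promoters of late cell cycle genes, and MuvB itself contacts the cell cycle genes homology region (CHR), a short promoter element.

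The promoters of 9 of the 10 genes were matched in RefSeq (GRCh38.p14), as windows of 250 bases before and 50 bases from the start site on, with the most upstream window kept where a gene had several. UBE2C was not matched. The windows below are those of the activator CDC20, the E2 enzyme UBE2S, PTTG1 and ESPL1, which fell after double knockdown in both lines, and of the subunit ANAPC11, which passed the test in no comparison with siCtrl. Each is given on the strand of its gene, and capitals mark the CHR element (TTTGAA or TTCGAA), the MYB motif (TAACNG or CAACNG) and the CCAAT box, each searched on both strands, so that a motif on the other strand appears as its reverse complement.
CDC20: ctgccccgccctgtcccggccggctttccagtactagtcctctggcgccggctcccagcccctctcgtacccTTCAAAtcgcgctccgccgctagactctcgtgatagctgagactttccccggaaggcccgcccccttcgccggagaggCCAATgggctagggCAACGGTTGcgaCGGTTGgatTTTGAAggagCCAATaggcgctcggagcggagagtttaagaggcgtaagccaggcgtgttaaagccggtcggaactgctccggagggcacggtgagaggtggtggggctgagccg
UBE2S: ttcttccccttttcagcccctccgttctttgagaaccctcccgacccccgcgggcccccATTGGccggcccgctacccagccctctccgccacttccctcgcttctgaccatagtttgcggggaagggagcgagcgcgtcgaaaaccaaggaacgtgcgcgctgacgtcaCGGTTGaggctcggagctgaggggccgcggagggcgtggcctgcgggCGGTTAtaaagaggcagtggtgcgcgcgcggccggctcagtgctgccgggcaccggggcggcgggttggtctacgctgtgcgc
PTTG1: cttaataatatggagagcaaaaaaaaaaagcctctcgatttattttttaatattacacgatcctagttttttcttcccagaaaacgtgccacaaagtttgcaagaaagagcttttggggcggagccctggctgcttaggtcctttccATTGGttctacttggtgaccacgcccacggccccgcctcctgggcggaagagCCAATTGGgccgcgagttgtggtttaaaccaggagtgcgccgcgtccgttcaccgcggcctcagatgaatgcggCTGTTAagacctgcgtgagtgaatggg
ESPL1: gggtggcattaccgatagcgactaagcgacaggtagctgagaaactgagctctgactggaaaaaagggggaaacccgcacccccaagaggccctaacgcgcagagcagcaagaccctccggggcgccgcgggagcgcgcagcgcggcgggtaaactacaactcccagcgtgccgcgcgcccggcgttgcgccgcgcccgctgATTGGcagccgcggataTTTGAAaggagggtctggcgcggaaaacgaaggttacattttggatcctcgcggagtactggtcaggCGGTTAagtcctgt
ANAPC11: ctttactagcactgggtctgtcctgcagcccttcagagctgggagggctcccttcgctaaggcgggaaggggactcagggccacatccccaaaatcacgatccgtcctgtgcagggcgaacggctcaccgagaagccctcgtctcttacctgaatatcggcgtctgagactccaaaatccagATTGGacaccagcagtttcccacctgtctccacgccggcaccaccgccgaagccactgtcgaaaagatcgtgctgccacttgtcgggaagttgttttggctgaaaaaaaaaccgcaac
The CDC20 window is chr1:43358731-43359030 (plus strand), that of UBE2S is chr19:55407739-55408038 (minus strand), that of PTTG1 is chr5:160421605-160421904 (plus strand), that of ESPL1 is chr12:53268049-53268348 (plus strand) and that of ANAPC11 is chr17:81890540-81890839 (plus strand).

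Counting the start site as 0, the CDC20 window held a CHR element at -65 to -60 and another, on the other strand, at -178 to -173. Between its CCAAT boxes at -100 to -96 and -55 to -51 lay 3 MYB motifs, of which those at -86 to -81 and -83 to -78 overlap each other. ESPL1 had a CHR element at -31 to -26 and a CCAAT box at -48 to -44. UBE2S and PTTG1 held no match to either CHR form, and had MYB motifs and CCAAT boxes. The ANAPC11 window held a CCAAT box at -68 to -64 and no CHR or MYB match.

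A CHR match was present in 4 of the 9 windows (CDC20, ESPL1, FZR1 and ANAPC1), against 16.7% of the 27305 genes with a window in the same table. The FZR1 match lay at -226 to -221, farther from the start than the others, and the ANAPC1 match at 37 to 42, past the RefSeq start. A MYB motif was present in 6 of 9, against 46.2% of all windows, and a CCAAT box in 6 of 9, against 35.7%. The E2F motifs searched (TTTCGCGC, TTTGGCGC, TTTCCCGC and TTTGCCGC) were in 0 of 9 windows, against 3.34% of all. Genes with and without a CHR match were found both among those that fell after double knockdown and among those that did not pass the test. FZR1 and ANAPC1 held one and were not called, whereas UBE2S, PTTG1, FBXO5 and CDC27 held none and fell. ANAPC11 held none and was not called. The window of FBXO5, which fell in both lines, held none of the motifs searched. For ANAPC1 and CDC27 the RefSeq start lay 497 and 127 bases inside the gene start given in the deposited tables, and for the other 7 the 2 starts were the same.

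**Figure D1:**
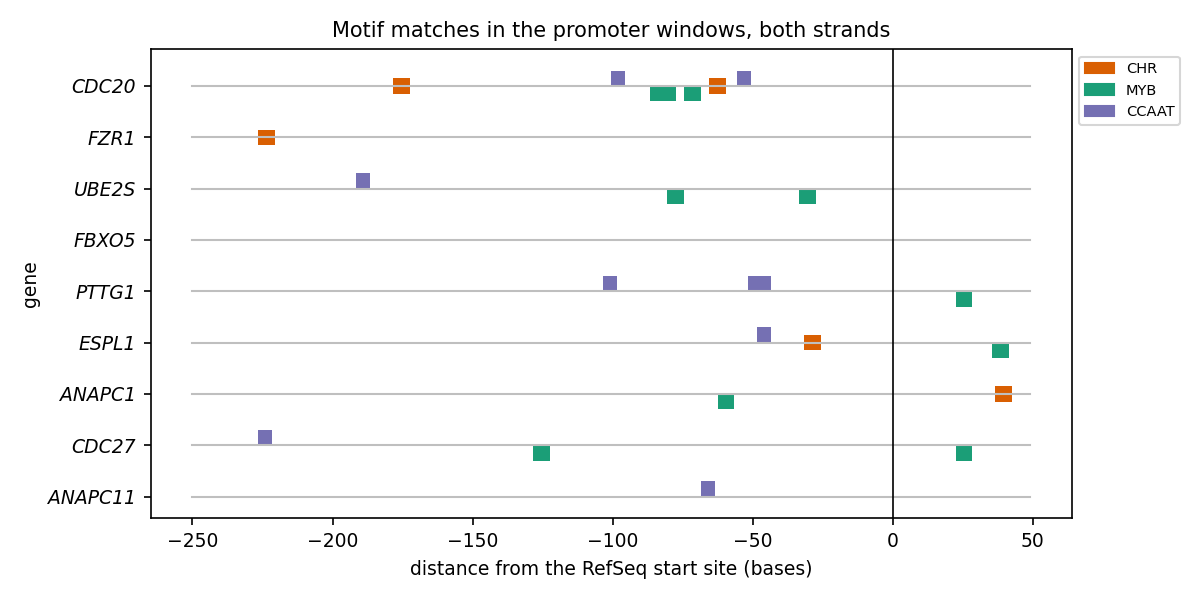
Positions of CHR, MYB and CCAAT matches on either strand in the 9 promoter windows, in bases from the RefSeq start site (vertical line at 0). CDC20 carries 7 matches, ESPL1 has a CHR match and a CCAAT box within 50 bases before the start, and FBXO5 has no match.

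The deposited data were the authors' 6 DESeq2 tables, each a knockdown against the siCtrl libraries of its line, with no values per library. Levels below are mean normalized counts per group, computed from the authors' base mean and fold change, and they are not corrected for gene length, so they are compared only within a gene. The 3 knockdowns of a line share their siCtrl libraries. The siCtrl level of a member differed between the 3 tables of its line by at most 1.12-fold in U2OS (ESPL1) and 1.15-fold in HCT116 (FZR1). Of the targeted genes, MYBL2 stood at 4.34% and 4.53% of siCtrl in U2OS (double and siMYBL2) and at 9.92% and 9.05% in HCT116. MYBL1 stood at 43.5% and 50.7% in U2OS (double and siMYBL1) and at 27.8% and 31.4% in HCT116, higher shares than for MYBL2. In the siMYBL1 tables, 9 of 11 mesenchymal markers were listed in U2OS and 8 of 11 in HCT116, with summed base means of 82148 and 1176. There, 4 of 11 epithelial markers were listed in U2OS and 10 of 11 in HCT116, with summed base means of 49031 and 73253. Of these sums, the highest single gene held 33149 and 31627. The lowest base mean listed was 30.2 in U2OS and 4.46 in HCT116, so the numbers of markers listed are not alike. The sums join genes without correction for length, and they set the lines side by side only roughly.

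After double knockdown, 7 of the 10 genes fell in U2OS and 7 in HCT116, and 0 rose by DESeq2 in either. CDC20, UBE2C, UBE2S, PTTG1, ESPL1, FBXO5 and CDC27 passed the test in each line, at the authors' adjusted p under 0.05. Of all 16803 genes in U2OS, 6.06% were called lower and 6.55% higher, and of 12885 in HCT116, 4.12% lower and 2.82% higher. The median log2 fold change of the 10 was -1.32 in U2OS, where that of all genes was 0.01, and -1.50 in HCT116, where that of all genes was -0.02. At an unadjusted DESeq2 p under 0.05 the counts were 8 and 9. Of all genes, 3876 of 16803 in U2OS and 2390 of 12885 in HCT116 passed that cut.

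Fewer of the 10 were called after single knockdowns. After siMYBL2, 5 genes fell in U2OS (CDC20, UBE2C, FBXO5, PTTG1 and ESPL1), with a background of 3.51% called lower, and UBE2C alone fell in HCT116, with a background of 0.837%. After siMYBL1, CDC20 and UBE2S fell in U2OS, with a background of 2.27%. In HCT116 siMYBL1 called 0 of the 10 by DESeq2, with a background of 0.144%. There, 3 had an unadjusted DESeq2 p under 0.05 (CDC20, PTTG1 and CDC27), beside 791 of all 17323 genes. The medians were -0.48 and -0.38 in U2OS for siMYBL2 and siMYBL1, and -0.36 and -0.22 in HCT116. In bulk RNA, fewer cells in the phase that makes a transcript and less of it per cell cannot be told apart.

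**Figure D2:**
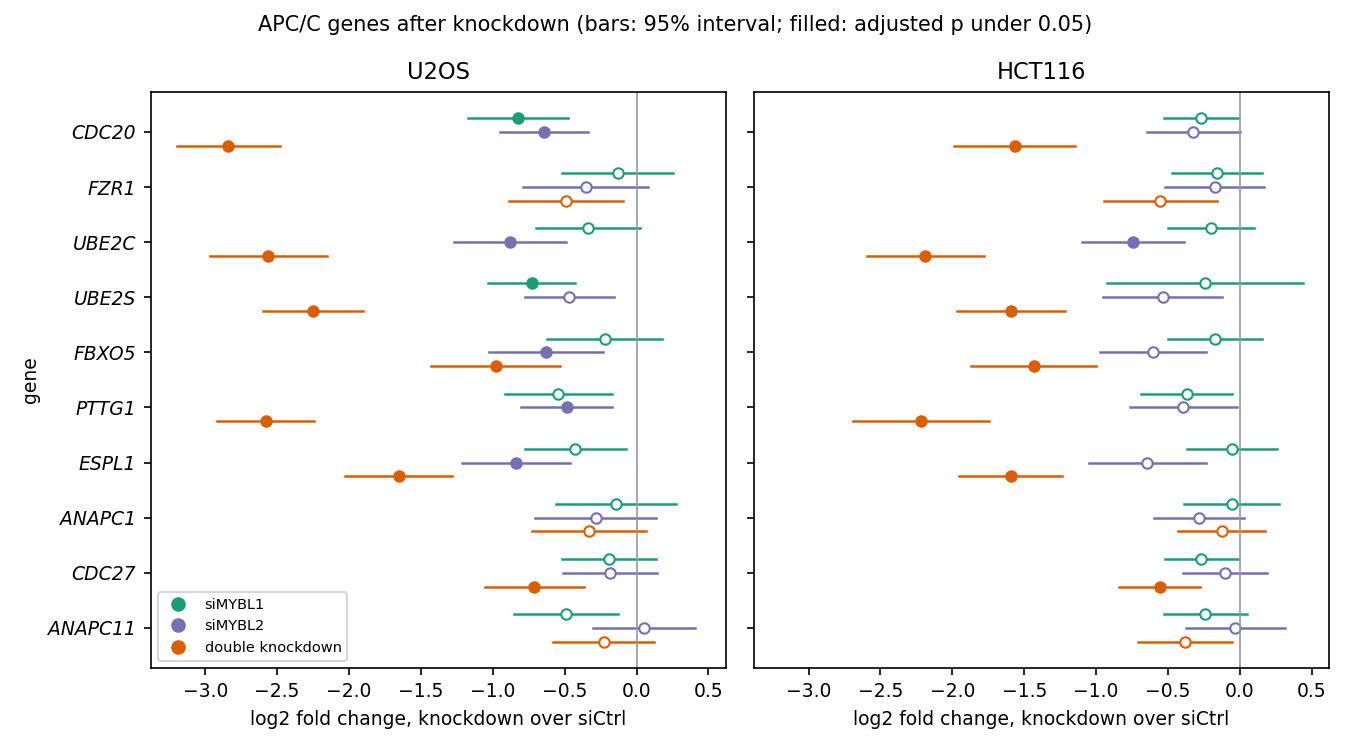
Authors' log2 fold change of knockdown over siCtrl (x axis, 2 libraries a group) for the 10 genes in U2OS (left) and HCT116 (right), with 95% intervals; filled points have an adjusted p under 0.05. The double knockdown points of CDC20, UBE2C, UBE2S, PTTG1 and ESPL1 lie between -2.84 and -1.57, and those of FZR1, ANAPC1 and ANAPC11 lie between -0.55 and -0.13.

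CDC20 (ENSG00000117399, chromosome 1, 43358981 to 43363203, hg38) supplies the substrate-binding activator of the mitotic APC/C. In U2OS its level was 931 after double knockdown against 6663 in siCtrl, which is 14.0% (95% interval 10.9% to 17.9%). The log2 fold change in the authors' deposited table was -2.84 (SE 0.18, adjusted p = 3.03e-51), and its test statistic ranked 14 from the lowest of 16803 genes. Both single knockdowns lowered it less in that line. It stood at 3700 after siMYBL1 against 6558 in siCtrl, a change of -0.83 in the authors' deposited table (SE 0.18, adjusted p = 0.000336). It stood at 4404 after siMYBL2 against 6869 in siCtrl, a change of -0.64 in the authors' deposited table (SE 0.16, adjusted p = 0.00203).

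In HCT116 the CDC20 level was 1842 after double knockdown against 5454 in siCtrl, which is 33.8%. The authors' deposited table held -1.57 (SE 0.21, adjusted p = 4.47e-11). That SE was larger than 98.5% of those of genes with a base mean within 2-fold, so the estimated error was wide for a transcript of its abundance. Neither single knockdown passed the test in this line, with -0.32 (SE 0.16, adjusted p = 0.615) for siMYBL2 and -0.27 (SE 0.13, unadjusted DESeq2 p = 0.0383) for siMYBL1 in the authors' deposited tables.

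FZR1 (chromosome 19, 3506311 to 3538334), the activator that takes over from CDC20, passed the test in no comparison with siCtrl. Its level was 749.1 after double knockdown against 1053 in siCtrl in U2OS, and the authors' deposited table held -0.49 (SE 0.20, adjusted p = 0.0929). In HCT116 its level was 903.7 after double knockdown against 1326 in siCtrl, with -0.55 in the authors' deposited table (SE 0.20, adjusted p = 0.0701). The 95% intervals of FZR1 ran from 54.2% to 93.5% of siCtrl in U2OS and from 51.9% to 89.5% in HCT116, each above that of CDC20 in the same line. After single knockdowns the log2 fold changes of FZR1 lay between -0.35 and -0.13 in the 4 authors' deposited tables.

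UBE2C (chromosome 20, 45812576 to 45816957), the E2 enzyme that places the first ubiquitins, was the only member called after siMYBL2 in HCT116. Its level there was 1118 after siMYBL2 against 1873 in siCtrl, with -0.74 in the authors' deposited table (SE 0.18, adjusted p = 0.00576). In U2OS it was 741.9 after siMYBL2 against 1365 in siCtrl, with -0.88 in the authors' deposited table (SE 0.20, adjusted p = 0.000684). siMYBL1 alone did not move it past the test in either line, with 79.2% of siCtrl in U2OS (95% interval 61.6% to 102%) and 86.9% in HCT116 (70.6% to 107%). After double knockdown UBE2C stood at 224.5 against 1324 in siCtrl in U2OS, or 17.0%, and the authors' deposited table held -2.56 (SE 0.21, adjusted p = 6.35e-32). In HCT116 it stood at 437.1 after double knockdown against 1990 in siCtrl, or 22.0%, and the authors' deposited table held -2.19 (SE 0.21, adjusted p = 4.51e-23). Its change there had the lowest adjusted p of the 10 members.

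UBE2S (chromosome 19, 55399745 to 55407788), the chain-elongating E2 enzyme, had the other pattern in U2OS single knockdowns. It was called after siMYBL1, at 4238 against 7029 in siCtrl, with -0.73 in the authors' deposited table (SE 0.15, adjusted p = 0.000231). After siMYBL2 it stood at 5446 against 7536 in siCtrl and missed the threshold, with -0.47 in the authors' deposited table (SE 0.16, adjusted p = 0.0553). A call after one siRNA and not after the other does not show that the 2 effects differ, and that difference was not tested. Double knockdown brought UBE2S to 1536 against 7302 in siCtrl in U2OS, or 21.0%, with -2.25 in the authors' deposited table (SE 0.18, adjusted p = 4.82e-34). In HCT116 it stood at 2918 after double knockdown against 8789 in siCtrl, or 33.2%, with -1.59 in the authors' deposited table (SE 0.19, adjusted p = 3.91e-14). After siMYBL2 it stood at 68.9% in HCT116 and was not called. The HCT116 errors of UBE2S were high for its abundance in all 3 tables. For siMYBL1 the authors' deposited table gave an SE of 0.35, above 98.0% of genes of similar base mean, and the interval ran from 52.6% to 135% of siCtrl, so a fall of the size seen in U2OS was not detectable there.

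FBXO5 (chromosome 6, 152970519 to 152983579), which keeps the APC/C off until mitosis, fell after double knockdown in both lines. In U2OS its level was 420.8 against 829.8 in siCtrl, or 50.7%, with -0.98 in the authors' deposited table (SE 0.23, adjusted p = 0.000429). In HCT116 it was 436 against 1178 in siCtrl, or 37.0%, with -1.43 in the authors' deposited table (SE 0.22, adjusted p = 1.61e-08). After siMYBL2 alone it was called in U2OS and not in HCT116, while the difference between the lines was -0.02 (95% interval -0.57 to 0.52). It was at 64.7% in U2OS, with -0.63 in the authors' deposited table (SE 0.20, adjusted p = 0.0411), and at 65.8% in HCT116, with -0.60 in the authors' deposited table (SE 0.19, adjusted p = 0.0877). After siMYBL1 alone it stood at 85.8% in U2OS and 88.9% in HCT116, neither called.

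PTTG1 (chromosome 5, 160421855 to 160428739) encodes securin, the APC/C substrate that inhibits separase. After double knockdown its level in U2OS was 576 against 3439 in siCtrl, or 16.8%, with -2.58 in the authors' deposited table (SE 0.17, adjusted p = 1.05e-47). In HCT116 it was 374.7 after double knockdown against 1744 in siCtrl, or 21.5%, with -2.22 in the authors' deposited table (SE 0.24, adjusted p = 2.52e-17). The SE in HCT116 was above 97.9% of those of genes of similar base mean. Single knockdowns left most of the transcript. In U2OS it stood at 71.4% of siCtrl after siMYBL2, with -0.49 in the authors' deposited table (SE 0.16, adjusted p = 0.0479), a call that the authors' own column does not make because it also asks for an absolute log2 change over 0.5. After siMYBL1 it stood at 68.5% in U2OS, with -0.55 in the authors' deposited table (SE 0.19, adjusted p = 0.0637). In HCT116 it stood at 76.2% after siMYBL2 and 77.3% after siMYBL1, neither called.

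ESPL1 (chromosome 12, 53268299 to 53293638) encodes separase itself. It fell after double knockdown to 488.5 in U2OS against 1538 in siCtrl, or 31.8%, with -1.65 in the authors' deposited table (SE 0.19, adjusted p = 4.47e-16). In HCT116 it stood at 454.5 after double knockdown against 1372 in siCtrl, or 33.1%, with -1.59 in the authors' deposited table (SE 0.18, adjusted p = 1.13e-15). After siMYBL2 alone it was called in U2OS, at 56.0% of siCtrl, with -0.84 in the authors' deposited table (SE 0.19, adjusted p = 0.0009). In HCT116 it stood at 64.1% after siMYBL2 and was not called (adjusted p = 0.115 in the authors' deposited table). After siMYBL1 alone it stood at 74.4% in U2OS and 96.1% in HCT116, neither called. Inhibitor and protease both fell after double knockdown. The share of siCtrl left was lower for PTTG1 than for ESPL1 in each line, with 95% intervals that do not overlap in U2OS (13.3% to 21.2% against 24.6% to 41.1%) and overlap in HCT116 (15.5% to 29.9% against 25.8% to 42.5%).

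Of the 3 subunits, CDC27 (chromosome 17, 47117703 to 47189422), which docks the activators, was the one called. Its level after double knockdown was 1932 against 3161 in siCtrl in U2OS, or 61.1%, with -0.71 in the authors' deposited table (SE 0.18, adjusted p = 0.00109). In HCT116 it was 2504 against 3683 in siCtrl, or 68.0%, with -0.56 in the authors' deposited table (SE 0.14, adjusted p = 0.00344). ANAPC1, the scaffold subunit (chromosome 2, 111611639 to 111884690), stood after double knockdown at 79.5% of siCtrl in U2OS (95% interval 60.3% to 105%) and at 91.5% in HCT116 (74.2% to 113%). ANAPC11, the RING subunit that binds the E2 enzymes (chromosome 17, 81890790 to 81900991), stood at 85.4% in U2OS (66.9% to 109%) and 76.8% in HCT116 (61.3% to 96.3%). None of these 4 values passed the test after adjustment, and no single knockdown called a subunit, with changes from -0.28 to -0.06 for ANAPC1, -0.27 to -0.10 for CDC27 and -0.49 to 0.05 for ANAPC11 in the authors' deposited tables. Reads of ANAPC1 may be shared with its copy ANAPC1P2, which was listed in every table at a base mean of 190 to 262, and in the HCT116 siMYBL1 table a further time at 5.25, so the value of ANAPC1 is uncertain. Use of strand in counting is not given in the sources used here. ANAPC11 shares 62 exon bases with ALYREF and 27 with PCYT2 on the other strand and 247 with NPB on its own. In the authors' deposited table ALYREF had -0.53 after double knockdown in HCT116 (adjusted p = 0.0060), whose part in the ANAPC11 value was not tested. FBXO5 shares 157 and FZR1 70 with a gene on the other strand, and reads from such shared bases are uncertain.

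Set against single knockdowns, the double knockdown lowered CDC20, UBE2C and PTTG1 further whichever siRNA it was compared with, in both lines. Against siMYBL1, 5 genes were lower in U2OS (CDC20, UBE2C, UBE2S, PTTG1 and ESPL1), with a background of 1.44%, and 5 in HCT116 (CDC20, UBE2C, FBXO5, PTTG1 and ESPL1), with a background of 1.12%. Against siMYBL2, 4 were lower in U2OS (CDC20, UBE2C, UBE2S and PTTG1; background 0.795%) and the same 4 genes in HCT116 (background 0.544%). Each difference is the double minus the single log2 fold change, and its SE treats the 2 as independent, which is too large because the siCtrl libraries are shared.

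CDC20 after double knockdown differed by -2.20 from siMYBL2 in U2OS (SE 0.24, adjusted p = 9.66e-17) and -1.24 in HCT116 (SE 0.27, adjusted p = 0.00136). Its difference from siMYBL1 was -2.01 in U2OS (SE 0.25, adjusted p = 2.18e-12) and -1.30 in HCT116 (SE 0.25, adjusted p = 4.83e-05). PTTG1 was likewise lower than after either siRNA alone. Its differences from siMYBL2 were -2.09 in U2OS (SE 0.24, adjusted p = 8.79e-16) and -1.83 in HCT116 (SE 0.31, adjusted p = 2.32e-06), and those from siMYBL1 were -2.03 in U2OS and -1.85 in HCT116. UBE2C differed by -1.68 from siMYBL2 and -2.22 from siMYBL1 in U2OS, and by -1.44 and -1.98 in HCT116, all called.

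For ESPL1 the extra fall was called against siMYBL1, at -1.23 in U2OS (SE 0.26, adjusted p = 0.000375) and -1.54 in HCT116 (SE 0.24, adjusted p = 1.25e-07). Against siMYBL2 it was -0.82 in U2OS (95% interval -1.35 to -0.29, adjusted p = 0.158) and -0.95 in HCT116 (-1.50 to -0.41, adjusted p = 0.0912). FBXO5 differed from siMYBL2 by -0.35 in U2OS (-0.95 to 0.25) and -0.83 in HCT116 (-1.40 to -0.26), neither called. UBE2S in HCT116 differed from siMYBL2 by -1.05 (SE 0.29, adjusted p = 0.0379) and from siMYBL1 by -1.35 (SE 0.40, adjusted p = 0.0530), the wider error of the siMYBL1 table leaving the larger difference uncalled. FZR1, ANAPC1 and ANAPC11 had differences between -0.40 and 0.26 in the 4 comparisons, none called. CDC27, called against siCtrl in both lines, was not called against either single knockdown, with differences from -0.53 to -0.29.

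Whether the double knockdown went beyond the sum of both single log2 changes was asked per line. In U2OS 3 genes fell below the sum, CDC20, UBE2C and PTTG1, with a background of 0.211% of 14701 genes called lower. In HCT116 PTTG1 did, with a background of 0.132% of 12873 genes. PTTG1 in U2OS measured -2.58 against a sum of -1.03, a departure of -1.55 (SE 0.30, adjusted p = 0.000336). In HCT116 it measured -2.22 against a sum of -0.76, a departure of -1.45 (SE 0.35, adjusted p = 0.0233).

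CDC20 in U2OS measured -2.84 against a sum of -1.47, a departure of -1.37 (SE 0.30, adjusted p = 0.00363). In HCT116 its departure was -0.97 (95% interval -1.56 to -0.39, adjusted p = 0.456). UBE2C, the other gene called in U2OS, measured -2.56 against a sum of -1.22, a departure of -1.34 (SE 0.34, adjusted p = 0.0428), and in HCT116 its departure was -1.24 (SE 0.31, adjusted p = 0.0535). The U2OS call of UBE2C was lost with changes centred on the median of all genes (adjusted p = 0.0518) and at a threshold of 0.01. UBE2S departed by -1.05 in U2OS (adjusted p = 0.0901). The measured value and the sum were close for FBXO5 in U2OS, at -0.98 and -0.85, with an interval of the departure from -0.85 to 0.59, and in HCT116 its departure was -0.66 (SE 0.34), not called. ESPL1 departed by -0.39 in U2OS and -0.89 in HCT116, not called. FZR1, ANAPC1, CDC27 and ANAPC11 departed by between -0.33 and 0.21 in both lines. With the shared controls counted once in the error, an alternative chosen after seeing the data, 4 members were called in U2OS, UBE2S being the added one, and 3 in HCT116, where CDC20 and UBE2C joined PTTG1.

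**Figure D3:**
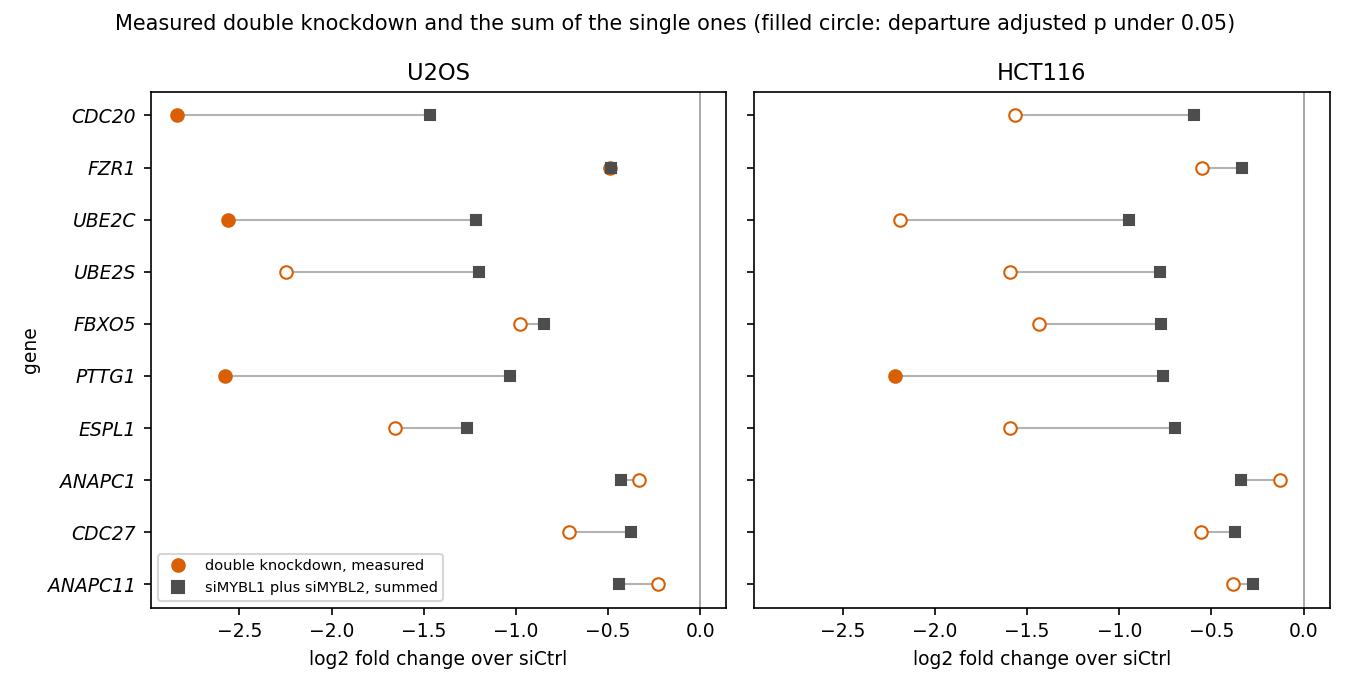
Log2 fold change over siCtrl measured after double knockdown (circles) and the sum of the siMYBL1 and siMYBL2 changes (squares) for each gene in U2OS (left) and HCT116 (right); a filled circle marks a departure with adjusted p under 0.05, which for UBE2C in U2OS did not hold after centring (0.0518). In U2OS the circles of CDC20, UBE2C and PTTG1 lie below their squares (departures of -1.34 to -1.55), and in HCT116 that of PTTG1 does (departure of -1.45).

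CDC20 was the member whose response to double knockdown differed between the lines. Its change was -2.84 in U2OS and -1.57 in HCT116, a difference of -1.27 (SE 0.28, 95% interval -1.83 to -0.72, adjusted p = 0.00225), with a background of 0.751% of 12388 genes lower in U2OS. The fall of MYBL2 itself also differed in that comparison, by -1.19 (SE 0.25, adjusted p = 0.00079), and that of MYBL1 by 0.64 (SE 0.50, adjusted p = 0.826), and their part in the result was not tested. The remaining 9 members were not called. UBE2S differed by -0.66 (-1.17 to -0.15, adjusted p = 0.269), PTTG1 by -0.36 (-0.94 to 0.22) and FBXO5 by 0.46 (-0.17 to 1.08), with the fall of FBXO5 the larger one in HCT116. For ESPL1 the difference was -0.06 (-0.58 to 0.46) and for UBE2C it was -0.37 (-0.95 to 0.20). FZR1, ANAPC1, CDC27 and ANAPC11 differed by between -0.20 and 0.15.

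For single knockdowns no member differed between U2OS and HCT116. By the normal test with Benjamini-Hochberg adjustment 0 of 10 were called for siMYBL2, with a background of 0.215%. For siMYBL1 0 of 10 were called, with a background of 0.0594%. At an unadjusted p under 0.05 the counts were 0 and 1, and the share of all genes at that cut was not computed. That 1 was CDC20 after siMYBL1, at -0.56 (95% interval -0.99 to -0.13, adjusted p = 0.608). Intervals of the other members reached as far as -1.23 (UBE2S after siMYBL1), so for UBE2S a difference of that size was not excluded.

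**Figure D4:**
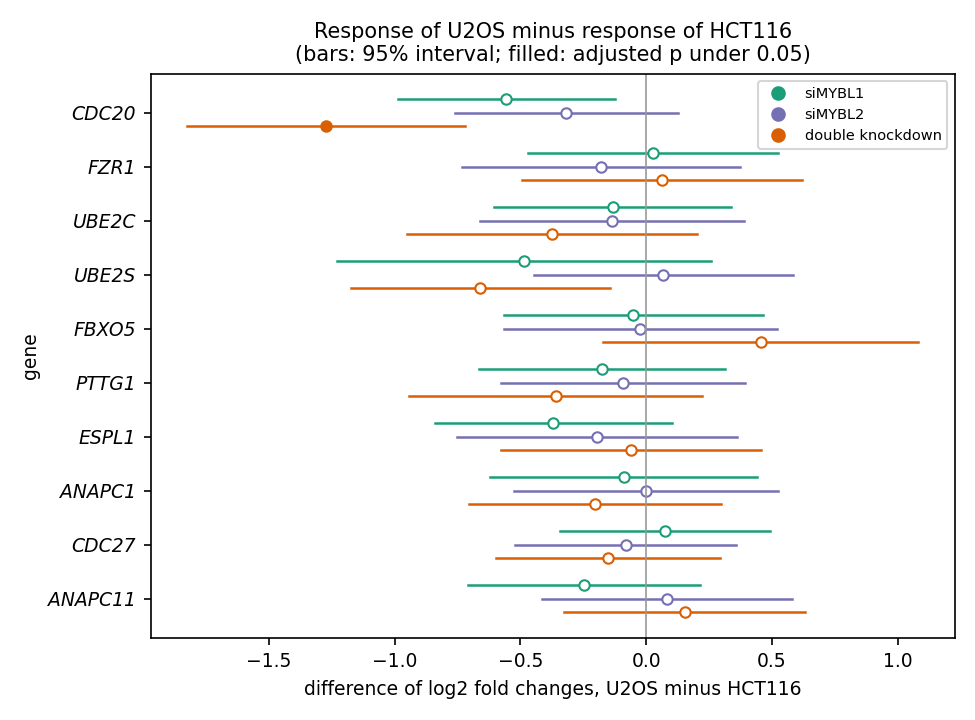
Difference of the log2 fold changes, U2OS minus HCT116 (x axis), for each gene and knockdown, with 95% intervals; filled points have an adjusted p under 0.05. The double knockdown point of CDC20 at -1.27 is the filled one, and 7 of the 10 double knockdown points lie below 0.

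Around these 10 genes, 6 lists of related genes were read in the same tables and are given as counts and medians. Of all genes, 6.06% in U2OS and 4.12% in HCT116 were called lower after double knockdown, and 6.55% and 2.82% higher. Called lower were 3.51% and 0.837% after siMYBL2, and 2.27% and 0.144% after siMYBL1. Of 11 other APC/C subunits, 1 fell after double knockdown in U2OS and 0 in HCT116, with medians of -0.09 and -0.13. These counts lie near the share of all genes. The 1 that fell was ANAPC13, a small subunit, which was also called after siMYBL2 alone in both lines. In U2OS the authors' deposited tables listed it -1.27 after double knockdown (SE 0.23, adjusted p = 2.74e-06) and -1.79 after siMYBL2 (SE 0.24, adjusted p = 6.09e-11). In HCT116 the authors' deposited tables listed -0.50 after double knockdown (SE 0.19, adjusted p = 0.0920) and -0.82 after siMYBL2 (SE 0.20, adjusted p = 0.00681). After siMYBL1 it was not called in either line.

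The spindle checkpoint holds CDC20 inactive until chromosomes are attached. Of its 8 listed genes, 6 fell after double knockdown in U2OS and 6 in HCT116 (medians -1.02 and -0.84): BUB1, TTK, BUB1B, MAD2L1BP, MAD2L1 and BUB3. BUB1, a checkpoint kinase, had -1.80 in U2OS (adjusted p = 2.41e-24) and -1.57 in HCT116 (adjusted p = 3.92e-13) in the authors' deposited tables. MAD2L1BP, which encodes p31comet and acts in switching the checkpoint off, was called in U2OS after siMYBL1 as well, at -1.42 (SE 0.25, adjusted p = 5.23e-06) beside -1.35 after double knockdown (SE 0.25, adjusted p = 2.54e-06) in the authors' deposited tables. It was not called after siMYBL2 alone. Single knockdowns called 4 checkpoint genes in U2OS after siMYBL1, 1 after siMYBL2, and 0 in HCT116 for either.

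A list of 26 further APC/C substrates was read in the same way. Of these, 21 fell after double knockdown in U2OS (median -1.68) and 22 in HCT116 (median -1.25), 15 and 6 after siMYBL2, and 10 and 0 after siMYBL1. CDCA3, a trigger of mitotic entry, had -4.16 in U2OS (adjusted p = 2.11e-86) and -2.68 in HCT116 (adjusted p = 8.74e-26) in the authors' deposited tables. PLK1, a mitotic kinase, had -4.07 in U2OS (adjusted p = 1.69e-70) and -2.19 in HCT116 (adjusted p = 1.80e-25) in the authors' deposited tables. Like CDC20, these 2 fell further in U2OS than in HCT116, by -1.48 for CDCA3 (adjusted p = 0.00152) and -1.88 for PLK1 (adjusted p = 6.6e-07). AURKA (-1.28, adjusted p = 0.00291) and TPX2 (-0.99, adjusted p = 0.00782), which act together in building the spindle, did so too. The 5 substrates not called in U2OS lay between -0.50 (BARD1) and 0.21 (CDC25A) after double knockdown in the authors' deposited table.

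Downstream of separase, the cohesin list had 2 of 8 genes lower after double knockdown in U2OS and 5 of 8 in HCT116. RAD21, the subunit that separase cuts, had -1.05 in U2OS (adjusted p = 9.51e-09) and -0.84 in HCT116 (adjusted p = 2.82e-05) in the authors' deposited tables. Of 6 listed genes for the ubiquitin-activating enzyme, other E2 enzymes and deubiquitinases that work with the APC/C, 0 were called by DESeq2 in either line after double knockdown. In the SCF ligase, the other main cell cycle ubiquitin ligase, 1 of 7 genes fell and 1 rose in each line. On so short a list these counts cannot be set apart from the shares of all genes. CCNF, the F-box protein cyclin F, had -2.06 in U2OS (adjusted p = 4.18e-25) and -1.55 in HCT116 (adjusted p = 2.52e-17) in the authors' deposited tables. FBXW7, the F-box protein that targets cyclin E, had 0.85 in U2OS (adjusted p = 0.00215) and 1.04 in HCT116 (adjusted p = 7.08e-05) in the authors' deposited tables.

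**Figure D5:**
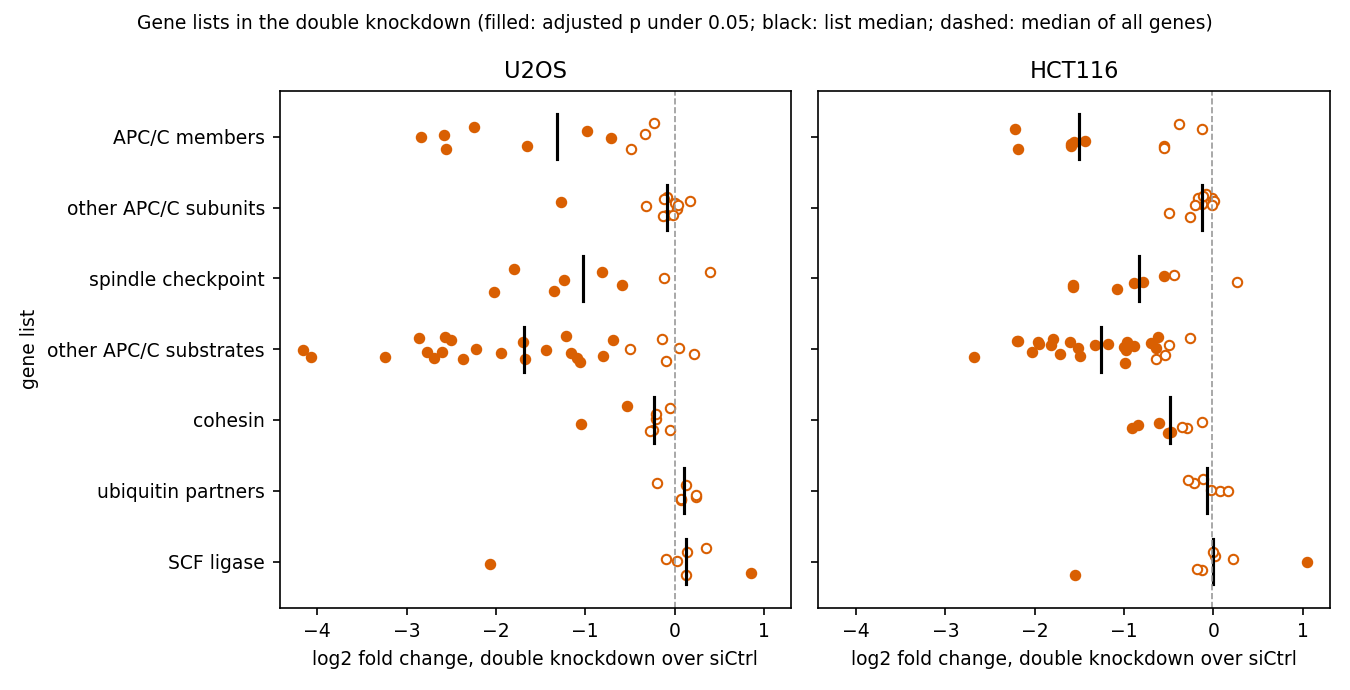
Authors' log2 fold change of the double knockdown over siCtrl (x axis) for each gene of the 10 APC/C members and 6 related lists in U2OS (left) and HCT116 (right); filled points have an adjusted p under 0.05, black bars are list medians and the dashed line is the median of all genes. The medians of the other subunits lie at -0.09 and -0.13, those of the checkpoint genes at -1.02 and -0.84 and those of the other substrates at -1.68 and -1.25.

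The genes whose 6 log2 fold changes were most like those of CDC20 were CCNB2, TPX2, NEK2, CDC25C and AURKA. Likeness was the straight-line distance over the 6 comparisons among 10265 genes whose base mean reached 100 in every table, and it was 0.445 for CCNB2 and 0.638 for AURKA, where the median gene lay 3.44 away. For UBE2S the nearest were SPAG5, TTK, NUF2, TPX2 and KIF18B (0.337 to 0.514, median gene 2.96). The distance takes no account of the errors of these changes, such as an SE of 0.50 for TTK after double knockdown in HCT116. The order of such near genes is therefore uncertain. The 3 comparisons of a line share their siCtrl libraries, so the 6 values of a gene are not independent.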

How the data were processed

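Total RNA of 16 libraries was sequenced in read pairs. The submitters' processing notes name cutadapt 4.4, Salmon 1.10.1, DESeq2 1.40 and the build hg38, without order or settings, and no source used here gives the annotation or the filters. Analysis started from 6 comparison tables, each made by the authors from 4 libraries. The base mean deposited by the authors is a signal, the mean normalized count over those libraries. The deposited log2 fold change is knockdown over siCtrl, with its standard error, and the deposited statistic is a score, the change over its error. The deposited p-value matched a two-sided normal test of that score, and the authors' adjusted p-value matched Benjamini-Hochberg adjustment over the genes listed (12885 to 17323 per table).

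The tables hold no values per library, so depth per library is unknown, no SD or interval for single libraries is given, and the fits considered for counts were replaced by tests on the tables. Base means summed to between 17441617 and 19826741. Group levels were solved from the base mean and the fold change, taking 2 libraries per group. Differences between tables were divided by the root of the summed squared standard errors. A two-sided normal p was taken, with Benjamini-Hochberg adjustment over all genes shared, at a threshold of 0.05. The calculation was run on simulated data with changes larger than the departures and line differences given here. Its noise was drawn from the deposited errors, so it does not test whether those errors are right. Python 3.11.15, pandas 2.3.3 and scipy 1.17.1 were used.

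The members and the gene lists were chosen with earlier results of these data known, so their counts are no independent evidence. All 10 members were named. From the lists, called genes were named, led by those with the smallest adjusted p after double knockdown, with up to 2 uncalled genes of largest change per comparison. Alternatives were a threshold of 0.01, genes whose base mean reached 100, centring on the median of all genes and other errors for shared controls. Promoter windows came from RefSeq GRCh38.p14. Locations are those of the deposited tables, on hg38.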

Additional observations from a re-analysis of the deposited data

Results flagged for a closer look

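The response of CDC20 to double knockdown differed between the lines by a test of the difference itself. Its log2 fold change over siCtrl was -2.84 in U2OS and -1.57 in HCT116, a difference of -1.27 (SE 0.28, adjusted p = 0.00225 by the normal test with Benjamini-Hochberg adjustment over 12388 genes). As shares of siCtrl, CDC20 stood at 14.0% in U2OS and 33.8% in HCT116. The residual MYBL2 transcript was 4.34% of siCtrl in U2OS and 9.92% in HCT116, and that of MYBL1 was 43.5% in U2OS and 27.8% in HCT116. The part of either in the difference was not tested.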

How the results depend on the processing

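Of the alternatives, only centring moves the log2 values, by medians between -0.017 and 0.019. Called members therefore kept their direction by construction, which is no test of it. After siMYBL2 in U2OS, 5 members were called at a threshold of 0.05 and 3 at 0.01, where FBXO5 and PTTG1 were lost; the authors' own call, which also asks for an absolute log2 change over 0.5, dropped PTTG1 there. The departure from the sum in HCT116 had 1 call, which became 0 at 0.01, 2 with genes whose base mean reached 100, and 3 with the shared controls counted once. The other counts of members stayed within 1.5 times under the threshold of 0.01, the base mean minimum, centring on the median, the authors' call and the changed errors for shared controls. The base mean minimum added 3 calls of members over all comparisons. Centring ended 1 member's call, UBE2C in the U2OS departure (adjusted p = 0.0518). Cancelling 0.5 of each variance as shared controls added 6 calls between double and single knockdowns, among them ESPL1 against siMYBL2 in both lines.

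Counts over all genes moved by more than 1.5 times in these cases. At 0.01 the calls against siCtrl were 1352 of 2119, 418 of 843 and 458 of 805 in U2OS (double, siMYBL1 and siMYBL2) and 506 of 895, 24 of 45 and 88 of 151 in HCT116. Double against siMYBL2 gave 105 of 163 in U2OS and 53 of 83 in HCT116. Between lines the calls were 60 of 157, 1 of 8 and 9 of 27 (double, siMYBL1 and siMYBL2). With part of the variance cancelled, double against siMYBL1 and siMYBL2 gave 822 and 642 in U2OS, in place of 227 and 163, and 545 and 237 in HCT116, in place of 165 and 83. With the controls counted once the departures gave 49 in place of 31 in U2OS and 39 in place of 18 in HCT116. No paired analysis was possible because the tables hold no values per library. For the same reason the planned refits with the replicate block, DESeq2 on counts, no low-count filter and leaving out each replicate were not run, and whether 1 library decides a value cannot be told.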
